A study of Mus musculus with 35 samples.

Results

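The genes Prm1, Prm2, Prm3, Tnp1 and Tnp2, which encode the protamines and transition proteins of sperm chromatin and their relative Prm3, were taken by symbol from the gene tables of pachytene spermatocytes (Spc), round spermatids (RS) and isolated chromatoid bodies (CBs). They are 5 of the 24411 genes of each table, and all 5 had enough counts to be tested in every comparison. The study removed Smg6, an endonuclease of nonsense-mediated mRNA decay, from mouse germ cells. Smg6-cKO mice carried Smg6(fx/fx) and the Ngn3Cre transgene, in which the Ngn3 promoter drives Cre in early germ cells so that exon 9 is lost there, while somatic cells of the testis keep the gene. Control (CTRL) mice were littermates without Cre, and all were adults of a mixed C57Bl/6J and SV129 background. Spc and RS were enriched by sedimentation through a BSA gradient, with 3 libraries of polyadenylated RNA per genotype and cell type, each from 1 mouse by the series text. The study's methods describe several testes for such an isolation, so whether a library stands for 1 animal or a pool is not settled here. CBs, the cytoplasmic RNA granules of haploid germ cells, were pulled down with an antibody to DDX4 from 2 to 4 pooled mice per sample, and total RNA of 4 CTRL and 3 Smg6-cKO samples was sequenced. A fraction holds many cells, so fewer cells of a type and less RNA per cell cannot be told apart.

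In the last phase of sperm development the histones of the spermatid nucleus are exchanged, first for transition proteins and then for protamines, which pack the DNA tightly. Prm1 and Prm2 encode the protamines and Tnp1 and Tnp2 the transition proteins, whereas Prm3 encodes an acidic protein that shares the gene cluster but not the arginine-rich composition. These genes are transcribed in round spermatids, and their mRNAs are known to be stored in protein complexes and translated later, in elongating spermatids.

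Tnp1 lies alone on chromosome 1, at chr1:73015074-73015909 (GRCm38, minus strand). The other 4 genes form a cluster on the minus strand of chromosome 16, with Tnp2 at chr16:10787936-10788660, Prm3 at chr16:10790505-10790914, the main transcript of Prm2 at chr16:10791380-10792105 and that of Prm1 at chr16:10796326-10796886. In GENCODE vM21 the main transcript of Prm3 has 1 exon and those of the other 4 genes have 2 exons each.

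The coding sequences show how the members differ, and the arginine codons are in capitals in the first pair. Of the 51 codons of Prm1 28 encode arginine (54.9%) and 9 cysteine, and of the 55 codons of Tnp1 11 encode arginine and 10 lysine (18.2%). Prm2 has 38 arginine codons among 107 (35.5%) and 16 histidine codons, and Tnp2 has 16 among 117 (13.7%) and 22 serine codons. Prm3 stands apart with 2 arginine codons among 101 and 30 codons for glutamate or aspartate (29.7%). For Prm3 the longest unbroken run of such acidic codons, codons 47 to 66, is shown in capitals with 5 codons on either side.
Prm1: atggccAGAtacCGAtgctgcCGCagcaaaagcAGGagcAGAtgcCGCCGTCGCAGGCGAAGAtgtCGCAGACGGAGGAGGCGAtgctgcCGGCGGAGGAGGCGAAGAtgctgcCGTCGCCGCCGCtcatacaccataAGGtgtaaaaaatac
Tnp1: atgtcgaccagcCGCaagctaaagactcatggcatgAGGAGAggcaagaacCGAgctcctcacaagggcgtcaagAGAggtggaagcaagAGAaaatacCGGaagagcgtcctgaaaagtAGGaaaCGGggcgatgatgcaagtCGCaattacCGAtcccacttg
Prm3 run: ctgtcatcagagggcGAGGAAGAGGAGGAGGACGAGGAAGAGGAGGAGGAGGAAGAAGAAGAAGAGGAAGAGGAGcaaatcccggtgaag

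Because the 5 genes moved together in the comparisons below, the 120 bases before each gene are shown, from RefSeq (GRCm38.p6, minus strand, printed 5′ to 3′), with motif matches in capitals. They are chr16:10796887-10797006 for Prm1, chr16:10792106-10792225 for Prm2, chr16:10790915-10791034 for Prm3, chr1:73015910-73016029 for Tnp1 and chr16:10788661-10788780 for Tnp2. Each window stops where GENCODE annotates the first exon, which for Prm1 leaves out the 63 bases next to the RefSeq start.
Prm1: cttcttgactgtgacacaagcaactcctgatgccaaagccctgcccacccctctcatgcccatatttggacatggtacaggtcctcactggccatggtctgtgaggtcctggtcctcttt
Prm2: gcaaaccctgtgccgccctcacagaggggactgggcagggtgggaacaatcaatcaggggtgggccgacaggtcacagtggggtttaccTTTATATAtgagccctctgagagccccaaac
Prm3: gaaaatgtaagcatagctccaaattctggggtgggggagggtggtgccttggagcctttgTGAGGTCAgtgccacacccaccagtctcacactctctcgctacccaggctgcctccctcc
Tnp1: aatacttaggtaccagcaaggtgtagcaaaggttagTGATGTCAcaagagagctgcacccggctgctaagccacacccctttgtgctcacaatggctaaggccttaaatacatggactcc
Tnp2: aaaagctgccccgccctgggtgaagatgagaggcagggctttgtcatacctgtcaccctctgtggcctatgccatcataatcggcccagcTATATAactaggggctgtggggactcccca

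The motifs were chosen with these sequences in view and were searched on both strands in the 250 bases before each RefSeq start. The letters TGACGTCA, the site known for cAMP response element factors such as CREM, occurred with at most 1 letter different in Prm1 (TGACTTCA), Prm3 (TGAGGTCA) and Tnp1 (TGATGTCA). The match of Prm1 lies 64 to 57 bases before the start, so that it begins at the last printed letter and runs past the end of the window (no capitals), and those of Prm3 and Tnp1 lie at 60 to 53 and 94 to 87 bases. Such a match was present in 3494 of 32851 mouse promoters of the same length (10.6%). The letters TATANA occurred in Prm1, Prm2 and Tnp2, where 22.6% of promoters held them, and in Prm2 a pair of matches overlaps within the run TTTATATA. No match says only that these letters are not in this window.

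Libraries of Spc and RS held 36419197 to 47355837 counts on genes and those of CBs 2705277 to 12103906. Within each group the differences between libraries exceeded sampling noise, and each library counted as a sample. Gene counts of Smg6 did not pass the test in any fraction (log2 fold change 0.22 in Spc, -0.01 in RS and -0.03 in CBs, with edgeR adjusted p = 0.36, 0.97 and 0.91), and a count over the whole gene cannot check the loss of exon 9. The labels were checked against markers in CTRL libraries. A list of 12 spermatocyte markers took 0.385% to 0.444% of gene counts in Spc and 0.166% to 0.186% in RS, and 10 round spermatid markers took 0.186% to 0.250% and 0.407% to 0.425%. A pair of Spc libraries stood apart for the members. Smg6-cKO Spc library 3 gave them 0.00654% of its gene counts, where libraries 1 and 2 gave 0.0303% and 0.0443%, and CTRL Spc library 1 gave them 0.427%, where libraries 2 and 3 gave 0.218% and 0.194%. CTRL Spc library 1 was also the highest for the 6 late spermatid markers described below, at 0.417% against 0.214% and 0.242%.

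All 5 members fell in Smg6-cKO RS, the stage at which they are normally transcribed. Values are counts scaled with TMM, edgeR's normalization of library composition, over the libraries compared. Prm2, the protamine with the most counts, had 415287, 313992 and 423542 normalized counts in the 3 CTRL libraries and 10787, 6482 and 10759 in the 3 Smg6-cKO libraries. Prm1, the other protamine, had 162907, 110708 and 163000 in CTRL and 5068, 2724 and 5284 in Smg6-cKO. For both genes the lowest CTRL library, library 2, lay far above the highest Smg6-cKO library.

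Tnp2, the larger transition protein, had 149990, 102917 and 154105 normalized counts in CTRL RS and 7074, 4803 and 6467 in Smg6-cKO RS. Tnp1 had 122011, 78152 and 126554 in CTRL and 4222, 3329 and 4781 in Smg6-cKO. Prm3 had far fewer counts, 10432, 8295 and 10804 in CTRL and 468, 703 and 538 in Smg6-cKO. Library 2 was the lowest of each genotype for Prm1, Prm2, Tnp1 and Tnp2, while for Prm3 it was the lowest in CTRL and the highest in Smg6-cKO. The groups did not overlap for any member.

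**Figure D1:**
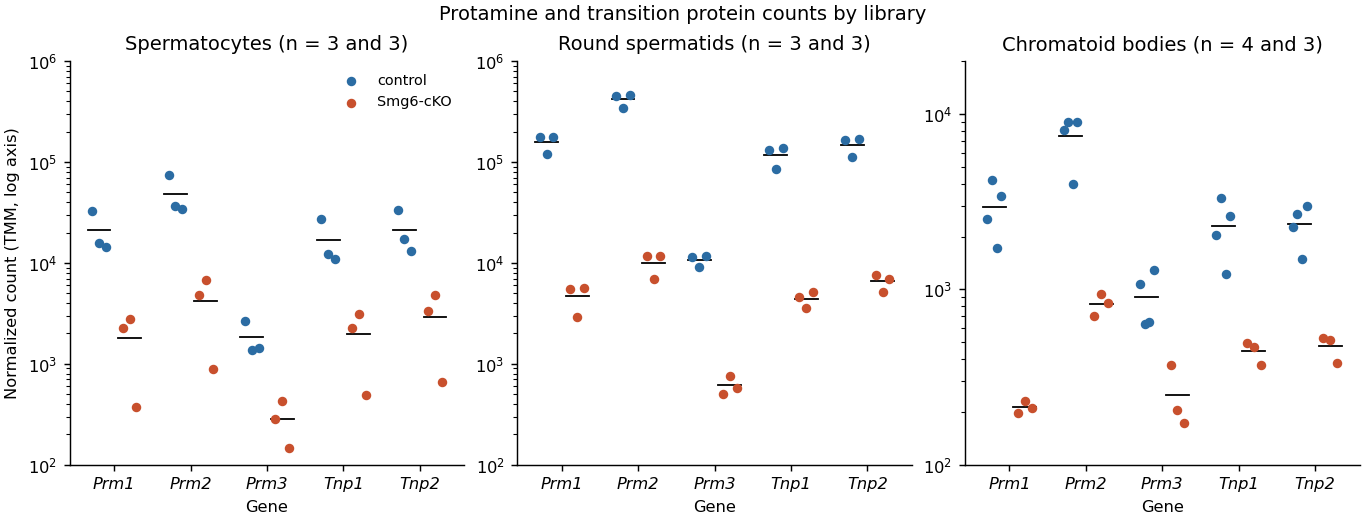
Normalized counts of the 5 genes by library on a log axis in Spc, RS and CBs (points: libraries; bars: group means; cells scaled over 12 libraries, CBs over 7). In every fraction each CTRL library lies above each Smg6-cKO library for all 5 genes, and the scales of cells and CBs are separate.

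The fold change in RS was largest for Prm2, at 41.1-fold lower (mean ± SD over 3 libraries 384274 ± 61006 in CTRL and 9343 ± 2478 in Smg6-cKO, log2 fold change -5.36, SE 0.24, edgeR quasi-likelihood test with Benjamini-Hochberg adjusted p = 7.5e-07). Prm1 was 33.4-fold lower (log2 fold change -5.06, SE 0.30, edgeR adjusted p = 2.7e-06). Tnp1 was 26.5-fold lower (-4.73, SE 0.23, edgeR adjusted p = 9.8e-07) and Tnp2 was 22.2-fold lower (-4.47, SE 0.21, edgeR adjusted p = 8.9e-07). Prm3 changed least, from 9844 ± 1354 to 570 ± 121, 17.3-fold (-4.11, SE 0.18, edgeR adjusted p = 6.1e-07). All 5 were called lower, a call needing an adjusted p no higher than 0.05 and a log2 fold change no smaller than 1.5 in either direction, where 11.6% of 17492 genes were called lower and 36.5% had lower groups that did not overlap. Ranked from the lowest fold change of all genes, Prm2 was number 9, Prm1 22, Tnp1 46, Tnp2 62 and Prm3 100.

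Scaling bears on this comparison. Scaling by library size alone put the log2 fold change of the median gene in RS at 0.73 in place of 0.11 and the share of calls that were higher from 56.2% to 82.2%. All 5 members remained called lower, with smaller log2 fold changes, -4.73 for Prm2, -4.43 for Prm1, -4.10 for Tnp1, -3.84 for Tnp2 and -3.49 for Prm3. Relative to the median of all genes Prm2 was at -5.47 with TMM and -5.46 with library size.

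The Spc fraction gave the same direction with a wider spread between libraries. Prm1 had 37244, 17357 and 15840 normalized counts in CTRL and 2294, 2909 and 390 in Smg6-cKO. Prm2 had 84734, 40228 and 37812 in CTRL and 4848, 7099 and 929 in Smg6-cKO. CTRL library 1 was the highest and Smg6-cKO library 3 the lowest of their groups for both protamines, and the groups did not overlap.

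The transition protein genes had the same high and low libraries in Spc. Tnp1 had 30944, 13570 and 12221 normalized counts in CTRL and 2301, 3271 and 508 in Smg6-cKO. Tnp2 had 37597, 18910 and 14382 in CTRL and 3365, 5085 and 687 in Smg6-cKO. For Prm3, 2999, 1532 and 1604 in CTRL stood against 285, 452 and 154, again without overlap.

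Prm1 and Prm2 were 12.6-fold lower each in Smg6-cKO Spc (log2 fold changes -3.66 and -3.66, SE 0.73 each, edgeR adjusted p = 0.014 for both). Tnp1 was 9.34-fold lower (-3.22, SE 0.69, edgeR adjusted p = 0.017), Tnp2 7.76-fold lower (-2.96, SE 0.71, edgeR adjusted p = 0.024) and Prm3 6.88-fold lower (-2.78, SE 0.44, edgeR adjusted p = 0.007). All 5 were called lower, where 5.10% of 17321 genes were called lower and 23.4% had lower groups that did not overlap. The calls depend on Smg6-cKO library 1. Without it 1 of the 5 was called, Prm3, and the edgeR adjusted p of the other 4 ran from 0.059 for Prm1 to 0.087 for Tnp2, with log2 fold changes of -3.02 to -3.82. Without Smg6-cKO library 3 all 5 were called, with log2 fold changes of -2.45 to -3.16, and without CTRL library 1 all 5 were called, with -2.39 to -3.17. Spc fractions also held markers of later cells. In CTRL Spc 6 late spermatid markers took 0.214% to 0.417% of gene counts and in Smg6-cKO Spc 0.0437% to 0.113%, and their part in the result was not tested.

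CTRL cells gained these mRNAs from Spc to RS. With the 6 CTRL libraries scaled together, Prm2 had 73090, 34933 and 32727 normalized counts in Spc and 396236, 305298 and 402183 in RS, 7.84-fold higher (log2 fold change 2.97, SE 0.33, edgeR adjusted p = 0.00025). Prm1 was 6.86-fold higher (2.78, SE 0.36, edgeR adjusted p = 0.00038), Tnp1 6.37-fold (2.67, SE 0.39, edgeR adjusted p = 0.00065), Tnp2 6.35-fold (2.67, SE 0.37, edgeR adjusted p = 0.00051) and Prm3 5.33-fold (2.42, SE 0.27, edgeR adjusted p = 0.00026). All 5 were called higher, where 17.0% of 17046 genes were, and no groups overlapped, which held with the higher values in RS for 38.5% of genes. Library size alone put the median gene at -0.54 in place of -0.08 and the share of calls that were higher from 49.9% to 20.6%, and left all 5 calls in place.

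In Smg6-cKO cells none of the 5 members was called from Spc to RS in the main fit. With replicate number as a block in the fit Prm2 alone was called, as described at the end. Prm2 had 5060, 7281 and 983 normalized counts in Spc and 12173, 7572 and 12216 in RS, a fold of 2.40 (log2 fold change 1.26, 95% interval -0.13 to 2.66, edgeR adjusted p = 0.12). Prm1 had 2394, 2984 and 412 in Spc and 5719, 3182 and 6000 in RS (1.37, interval -0.067 to 2.80, edgeR adjusted p = 0.10). In both genes RS library 2 lay just above the highest Spc library, so that the groups came close without overlapping.

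Tnp1 and Tnp2 had log2 fold changes of 1.16 (interval -0.10 to 2.43) and 1.15 (interval -0.19 to 2.49), with edgeR adjusted p = 0.11 and 0.14. Prm3, the acidic member, reached an edgeR adjusted p of 0.043 with a log2 fold change of 1.09 (SE 0.36), under the size needed for a call, where 18.9% of 17709 genes were higher at that p alone. For all 5 members the RS values lay above the Spc values, as they did for 26.2% of genes, while 3.27% of genes were called higher. Library size alone moved the share of calls that were higher from 46.3% to 60.6% and put the median gene at 0.16 in place of 0.01. Without Spc library 3 the log2 fold changes were 0.67 to 0.88 with edgeR adjusted p of 0.024 to 0.058, and none was called. Without Spc library 2 they were 1.58 to 1.90 and 4 of 5 members were called, all but Prm1.

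The difference between the genotype effects of the cell types was tested as an interaction over all 12 libraries. The fall in RS was larger than that in Spc by 1.83 on the log2 scale for Prm2 (interaction -1.83, SE 0.77, edgeR adjusted p = 0.075). The other protamine Prm1 had an interaction of -1.54 (SE 0.80, edgeR adjusted p = 0.14), and Tnp1 and Tnp2 had -1.63 (SE 0.75) and -1.64 (SE 0.77), with edgeR adjusted p = 0.096 and 0.10. Prm3 alone passed, with -1.45 (SE 0.48, edgeR adjusted p = 0.032), so 1 of 5 members did, where 24.1% of 18171 genes had a more negative effect in RS at that p. Without Smg6-cKO Spc library 3 all 5 passed (-1.77 to -2.31, edgeR adjusted p from 0.0029 to 0.0078), and without CTRL Spc library 1, which was the highest of its group, 4 members passed. Without any one of 8 other libraries none passed. With library size alone none passed, the interactions of the members were -0.75 to -1.11, and the median interaction of all genes moved from -0.13 to 0.58, with a share of calls that were positive of 44.2% and 93.7%. Relative to that median the interaction of Prm2 was -1.70 with TMM and -1.69 with library size.

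**Figure D2:**
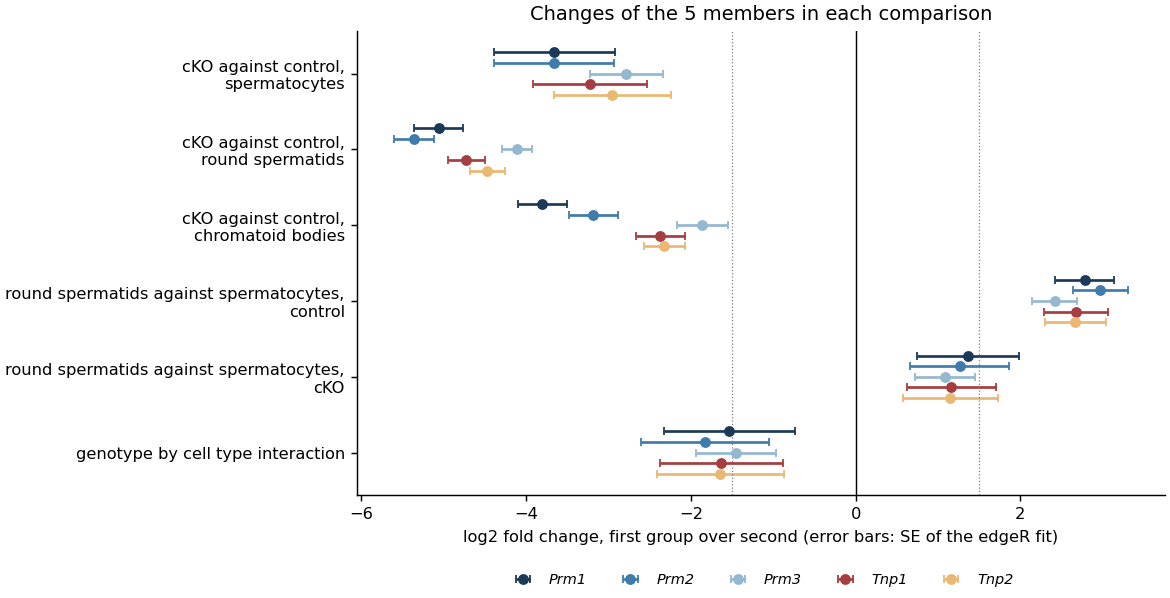
Log2 fold changes of the 5 genes in each comparison (points: edgeR estimates; error bars: SE of the fit; dotted lines: the size of 1.5 needed for a call). Prm2 is lowest in RS at -5.36, Prm3 lies nearest to 0 of the 5 in each genotype comparison, and for the interaction each row is the effect in RS minus that in Spc.

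In isolated CBs the members were lower as well. The columns of the CB table carry numbers that do not match the sample titles, so library numbers only name the columns, and CTRL libraries 3 and 4 carry another prefix whose meaning is not given. Prm1 had 2507, 4220, 1721 and 3385 normalized counts in CTRL CBs and 197, 232 and 209 in Smg6-cKO CBs. Prm2 had 8075, 9002, 3983 and 8939 in CTRL and 707, 944 and 831 in Smg6-cKO. The Smg6-cKO libraries were close to each other for both protamines and far below the lowest CTRL library, which was library 3.

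Tnp1 had 2037, 3301, 1220 and 2609 normalized counts in CTRL CBs and 497, 469 and 368 in Smg6-cKO CBs. Tnp2 had 2273, 2680, 1493 and 3004 in CTRL and 529, 513 and 380 in Smg6-cKO. Prm3 had 1070, 632, 649 and 1286 in CTRL and 370, 205 and 173 in Smg6-cKO. Prm3 was thus the member whose groups came closest, though they did not overlap.

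Prm1 changed most in CBs, 14.0-fold (log2 fold change -3.80, SE 0.30, edgeR adjusted p = 1.7e-05), followed by Prm2 at 9.08-fold (-3.18, SE 0.30, edgeR adjusted p = 2.8e-05). Tnp1 was 5.17-fold lower (-2.37, SE 0.30, edgeR adjusted p = 0.00012), Tnp2 5.00-fold (-2.32, SE 0.25, edgeR adjusted p = 4.9e-05) and Prm3 3.63-fold (-1.86, SE 0.31, edgeR adjusted p = 0.00066). All 5 were called lower, where 5.64% of 14051 genes were called lower and 20.8% had lower groups that did not overlap. Library size alone put the median gene in CBs at -0.08 in place of 0.07 and the share of calls that were higher from 50.3% to 38.7%. With only the CTRL libraries 1 and 2, a choice made after seeing the data, all 5 were still called, with -4.01 for Prm1 and -1.79 for Prm3 (edgeR adjusted p = 0.00011 and 0.0038). CB and cell libraries differ in kit, RNA selection and sequencing site, so their levels are not compared.

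Levels of different members can be compared only per length, here as normalized counts per kilobase of the main transcript with the 12 cell libraries scaled together. In CTRL RS the order was Prm2 (673401 ± 107423 per kilobase, mean ± SD, n = 3), Prm1 (337710 ± 70261), Tnp1 (271215 ± 66752), Tnp2 (268937 ± 56570) and Prm3 (26128 ± 3612). Prm2 lay above Prm1 and Tnp2 above Prm3 without overlap, whereas the ranges of Prm1 and Tnp1 and those of Tnp1 and Tnp2 overlapped, the latter pair holding its order in 2 of 3 libraries. Prm2 had the highest count of any gene in each of the 3 CTRL RS libraries, and it ranked 654, 1359 and 699 in the Smg6-cKO ones. Prm1 went from ranks 7, 20 and 10 to 1685, 3164 and 1661.

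In Smg6-cKO RS the means were ordered differently. There Prm2 (16223 ± 4286 per kilobase) was followed by Tnp2 (12011 ± 2297), Tnp1 (10145 ± 1794), Prm1 (10021 ± 3254) and Prm3 (1500 ± 319). Only Prm3 was separated from its neighbour, Prm1, and the ranges of the other neighbours overlapped. Tnp1 lay above Prm1 in only 1 of 3 libraries, so the order of that pair is not established. In CTRL Spc the order was that of CTRL RS, from 77965 ± 36761 for Prm2 to 4454 ± 1732 for Prm3 per kilobase, with Tnp2 and Prm3 as the only neighbours that did not overlap. In Smg6-cKO Spc it ran from Prm2 (6680 ± 4807) over Tnp2, Tnp1 and Prm1 to Prm3 (699 ± 345), and all neighbours overlapped. In CBs, scaled among themselves, the CTRL order was again Prm2, Prm1, Tnp1, Tnp2 and Prm3 (12077 ± 3837 to 2217 ± 787, n = 4), with all neighbours overlapping. In Smg6-cKO CBs the mean of Prm1 (453 ± 37.4, n = 3) was the lowest, but its range overlapped that of Prm3 (609 ± 259), which was above it in 2 of 3 libraries, and only Prm2 was separated from its neighbour, Tnp1.

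Ratios between members within a library do not depend on scaling. The protamine ratio, counts of Prm2 over those of Prm1, was 2.55, 2.84 and 2.60 in CTRL RS and 2.13, 2.38 and 2.04 in Smg6-cKO RS, a fall of the mean log2 ratio by 0.29. In CBs it was 3.22, 2.13, 2.31 and 2.64 in CTRL and 3.59, 4.08 and 3.97 in Smg6-cKO, a difference of 0.61 in the other direction. In Spc the groups overlapped, with a difference of -0.01 (exact permutation test, two-sided, p = 0.90). The protamine ratio was thus lower in Smg6-cKO RS and higher in Smg6-cKO CBs than in each library of CTRL.

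Tnp1 over Prm1 sets a transition protein against a protamine. This ratio was 0.812, 0.782, 0.709 and 0.771 in CTRL CBs and 2.52, 2.03 and 1.76 in Smg6-cKO CBs, a difference of 1.44 in the mean log2 ratio with a pooled SD of 0.18. It was also higher in Smg6-cKO Spc (difference 0.52) and RS (0.39), without overlap. Tnp2 over Tnp1 was 1.23, 1.32 and 1.22 in CTRL RS and 1.68, 1.44 and 1.35 in Smg6-cKO RS (difference 0.24), and its groups overlapped in Spc (0.21) and CBs. The largest difference was that of Prm3 over Prm1 in CBs, 0.427, 0.150, 0.377 and 0.380 in CTRL and 1.88, 0.886 and 0.826 in Smg6-cKO (1.85), and it was 1.14 in Spc and 0.98 in RS. Without Smg6-cKO Spc library 3 the difference in Spc was 0.63. Without Smg6-cKO RS library 2 that in RS was 0.51, and the difference of Tnp1 over Prm1 in RS was 0.22 in place of 0.39. Without Smg6-cKO RS library 1 the difference of Tnp2 over Tnp1 in RS was 0.16.

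No ratio reached a p of 0.05. For the 9 ratios whose groups did not overlap the exact permutation p (two-sided) was the smallest the design allows, 0.10 with 3 libraries against 3 and 0.057 with 3 against 4, and the Benjamini-Hochberg value over the 12 tests was 0.13. The other 3 ratios had adjusted values of 0.24 to 0.91.

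**Figure D3:**
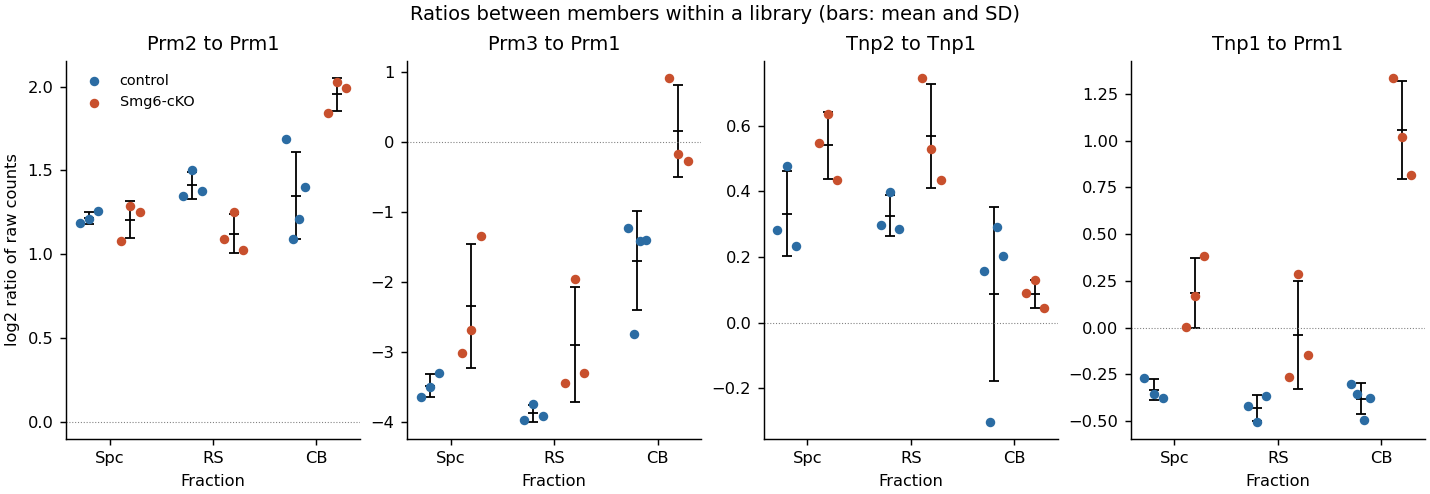
Log2 ratios of raw counts between members by library (points: libraries; bars: mean ± SD; dotted line: equal counts). Tnp1 over Prm1 lies above 0 in the 3 Smg6-cKO CB libraries and below 0 in all CTRL libraries, and the protamine ratio is lower than CTRL in Smg6-cKO RS and higher in Smg6-cKO CBs.

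Counts per transcript, made by the authors from the same reads against the Ensembl annotation, gave the same calls, which is no independent evidence. The table holds 6 transcripts of the members, a pair of them from Prm2 that shares reads, and all 6 were called lower in each fraction, where 3.55% of transcripts in Spc, 10.3% in RS and 4.75% in CBs were called lower. In RS the main transcript of Prm2, ENSMUST00000037996, changed by -5.28 on the log2 scale and its other transcript, ENSMUST00000189593, by -5.28 (SE 0.25 for each, edgeR adjusted p = 3.5e-06 and 3.6e-06). The Prm3 transcript had the smallest change in each fraction, -2.77 in Spc, -4.03 in RS and -1.77 in CBs. The pair of Prm2 transcripts differed by less than their SE in Spc and RS, and in CBs they had -3.17 (SE 0.34) and -2.92 (SE 0.33).

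The members were set beside markers of late spermatids that are not members, Odf1 and Akap4 of the sperm tail, the sperm glycolysis enzyme Gapdhs, and Oaz3, Smcp and Spata18. Summed, the 5 members took 1.19% to 1.61% of gene counts in CTRL RS and 0.0510% to 0.0815% in Smg6-cKO RS, and the 6 markers took 1.19% to 1.35% and 0.161% to 0.181%. The ratio of members to markers was 1.00 to 1.22 in CTRL RS and 0.281 to 0.493 in Smg6-cKO RS, without overlap. In Spc this ratio was 0.805 to 1.02 in CTRL and 0.150 to 0.391 in Smg6-cKO, again without overlap, and the value of 0.150 was that of library 3, the other Smg6-cKO libraries having 0.390 and 0.391. In CBs the members took 0.160% to 0.355% of gene counts in CTRL and 0.0288% to 0.0401% in Smg6-cKO, the markers 0.128% to 0.249% and 0.0142% to 0.0315%, and the ratios, 1.24 to 1.88 and 1.14 to 2.10, overlapped. All 6 markers fell in each fraction at an edgeR adjusted p no higher than 0.05, with median log2 fold changes of -2.13 in Spc, -3.74 in RS and -2.70 in CBs.

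**Figure D4:**
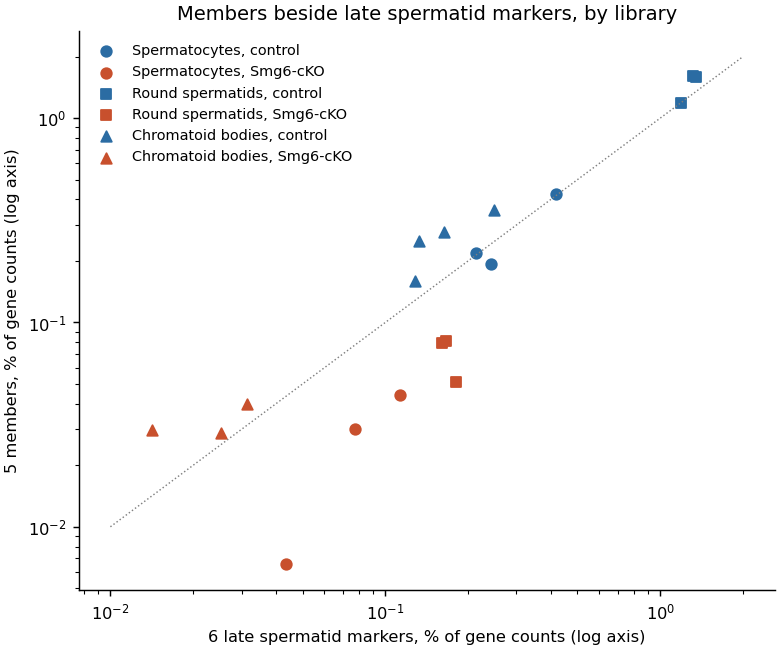
Share of gene counts on the 5 members against that on 6 late spermatid markers, both on log axes, 1 point per library; the dotted line marks equal shares. CTRL RS libraries lie at the line or above it, Smg6-cKO RS and Spc libraries lie below it, and CB libraries of both genotypes lie above it.

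At an adjusted p no higher than 0.05 alone 14.0% of all genes were higher and 14.1% lower in Smg6-cKO Spc, 38.4% and 34.3% in RS, and 18.1% and 18.4% in CBs, which is the background for the lists that follow. The median gene lay at -0.01, 0.11 and 0.07 on the log2 scale. Of 10 round spermatid markers 10 were lower in RS (median -1.59), 2 in Spc (-0.64) and 7 in CBs (-1.03), with none higher. With library size alone 7 were lower and 1, Spata16, turned from -0.26 to 0.36 in RS. Of 12 spermatocyte markers 6 were higher and 3 lower in RS (median 0.76), and with library size 10 were higher and 0 lower, Hspa2 and Ccna1 turning from lower to higher. Round spermatid markers took 0.222% to 0.251% of gene counts in Smg6-cKO RS, and in CBs 0.0678% to 0.108% in CTRL and 0.0339% to 0.0464% in Smg6-cKO. Spermatocyte markers took 0.241% to 0.268% in Smg6-cKO RS. Their part in the change of the members was not tested. From Spc to RS at that p, 6 of 6 late and 9 of 10 round spermatid markers rose in CTRL, where 36.2% of all genes did. In Smg6-cKO 6 and 7 of them rose, where 18.9% of all genes did.

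Markers of somatic and blood cells also moved. In RS 8 of 9 Sertoli markers tested, 6 of 6 Leydig, 7 of 7 macrophage and 3 of 4 erythroid markers were higher in Smg6-cKO, again at that p. The Sertoli markers took 0.00402% to 0.00510% of gene counts in CTRL RS and 0.00836% to 0.0264% in Smg6-cKO RS, and the Leydig markers 0.000604% to 0.000650% and 0.00337% to 0.0356%. The macrophage markers took 0.00221% to 0.00295% and 0.0178% to 0.0287%, and the erythroid markers 0.00122% to 0.00143% and 0.00534% to 0.0216%. In Spc 8 of 10 Sertoli markers were lower (0.0322% to 0.0896% of gene counts in CTRL and 0.0166% to 0.0270% in Smg6-cKO), while 3 of 7 Leydig and 6 of 7 macrophage markers were higher and 1 macrophage and 1 of 3 erythroid markers lower. The Leydig markers took 0.0124% to 0.0416% of gene counts in CTRL Spc and 0.0589% to 0.127% in Smg6-cKO Spc, the macrophage markers 0.00316% to 0.00457% and 0.00404% to 0.00585%, and the erythroid markers 0.00113% to 0.00232% and 0.000152% to 0.000316%. In CBs 2 of 6 Sertoli, 6 of 6 Leydig, 3 of 5 macrophage and 0 of 1 erythroid markers were higher. Their shares there were 0.00317% to 0.00325% in CTRL and 0.00285% to 0.00771% in Smg6-cKO for Sertoli, 0.00182% to 0.00517% and 0.00519% to 0.0403% for Leydig, 0.00135% to 0.00165% and 0.00164% to 0.00717% for macrophage, and 0.000365% to 0.000504% and 0.000323% to 0.00120% for erythroid markers. No marker was at 0 in a cell library except 1 erythroid marker in 4 of the 12, and in CB libraries up to 2 Sertoli and up to 2 erythroid markers were at 0. Each of these 4 lists took a smaller share than the members in every RS library. In Smg6-cKO Spc the Leydig markers took more than the members in all 3 libraries and the Sertoli markers in library 3 (0.0270% against 0.00654%), and in Smg6-cKO CBs the Leydig markers took more in library 3 (0.0403% against 0.0288%). Their part in the result was not tested.

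Regulators known to act on the transcription of these genes in spermatids were described as a list. Of its 9 genes 7 were lower and 1 higher in RS (median log2 fold change -0.96), 2 and 1 in Spc (-0.29) and 4 and 0 in CBs (-0.43). Fhl5, the coactivator of CREM, changed by -2.84 in RS (SE 0.13, edgeR adjusted p = 9.4e-07), Kif17, a kinesin that carries that coactivator, by -2.12 (SE 0.14, edgeR adjusted p = 4.5e-06), the transcription factor Sox30 by -1.39 (SE 0.07, edgeR adjusted p = 1.5e-06) and Crem itself by -1.12 (SE 0.06, edgeR adjusted p = 2.2e-06). With library size alone Crem was at -0.51, and the list had 5 lower and 2 higher in RS with a median of -0.34 beside 0.73 for all genes. The higher pair was Kdm3a (1.18, edgeR adjusted p = 2.1e-06) and Brwd1 (0.59, edgeR adjusted p = 0.00065). In Spc Fhl5 was at -1.71 and Crem at -0.29, with edgeR adjusted p = 0.059 and 0.13, and Kdm3a was higher (0.44, edgeR adjusted p = 0.0056).

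Factors that bind or store spermatid mRNAs formed a list of 8 genes, of which 4 were lower and 3 higher in RS (median -0.33), 1 and 1 in Spc (-0.01), and 1 and 1 in CBs (0.40). These counts lie near the shares of all genes in RS (34.3% lower and 38.4% higher), in Spc (14.1% and 14.0%) and in CBs (18.4% and 18.1%), so nothing is read from them about the list. Ybx2, the Y-box protein that packages stored mRNA, changed by -0.88 in RS (SE 0.07, edgeR adjusted p = 1.1e-05), and the testis poly(A) polymerase Papolb by -1.02 (SE 0.08, edgeR adjusted p = 1.2e-05). The helicase Ddx25 changed by -0.66 (SE 0.06, edgeR adjusted p = 4.1e-05) and the RNA-binding protein Dazap1 by 1.47 (SE 0.07, edgeR adjusted p = 8e-07). Dazap1 was also higher in Spc (1.21, edgeR adjusted p = 0.0002) and CBs (1.49, edgeR adjusted p = 0.00012). With library size alone the median of this list in RS turned to 0.29, with 4 higher and 2 lower, and Ddx25 no longer passed (-0.04, edgeR adjusted p = 0.49).

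Genes of histone removal and replacement, the step that the protamines and transition proteins complete, formed another list. Of its 12 genes 8 were lower and 3 higher in RS (median -1.31), 4 and 1 in Spc (-0.63), and 7 and 1 in CBs (-0.69). Tssk6, a kinase needed for the exchange of histones, changed by -4.75 in RS (SE 0.08, edgeR adjusted p = 6.5e-08), -2.91 in Spc and -3.44 in CBs (edgeR adjusted p = 0.019 and 3.7e-05). The spermatid linker histones H1fnt and Hils1 changed by -3.37 (SE 0.12, edgeR adjusted p = 3.3e-07) and -2.52 (SE 0.09, edgeR adjusted p = 4e-07) in RS, and the chromodomain protein gene Cdyl by -2.80 (SE 0.13, edgeR adjusted p = 7.6e-07). With library size alone 6 were lower and 4 higher in RS, and the median of -0.69 kept its sign.

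**Figure D5:**
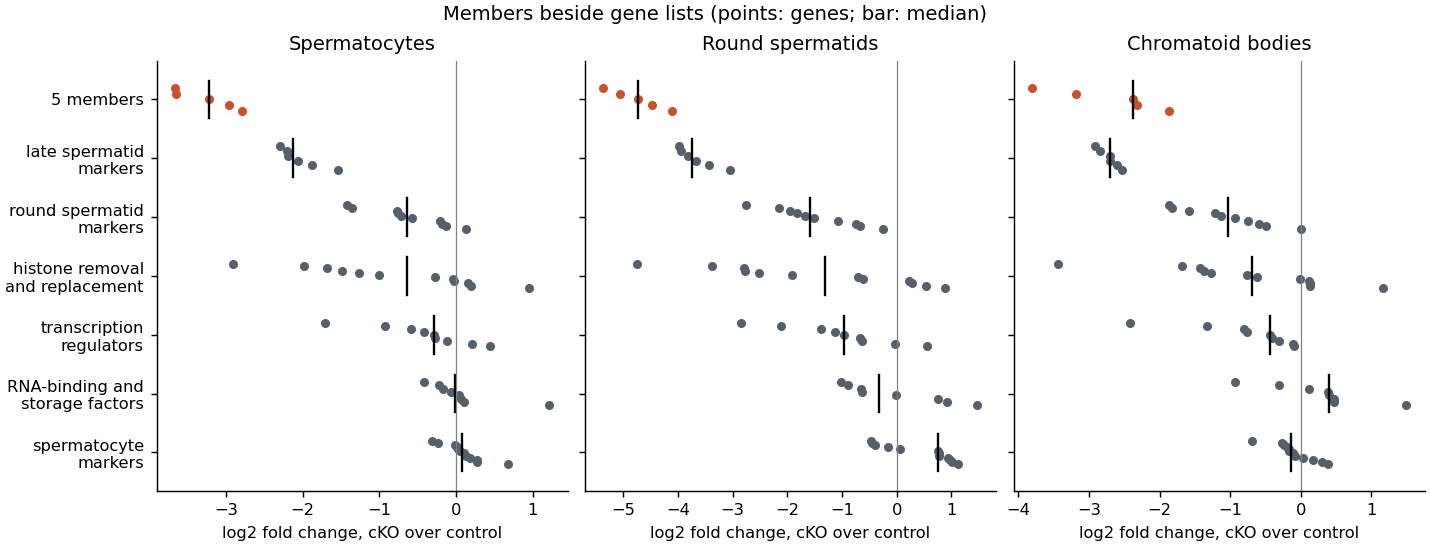
Log2 fold changes of Smg6-cKO over CTRL for the members and for genes of 6 lists in each fraction (points: genes; black bars: medians; the x axes differ). The median of the members lies below that of every list in Spc and RS, and in CBs the late spermatid markers have the lowest median at -2.70.

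Genes within 100 kb of a member were read from GENCODE vM21. The antisense gene 1700027A15Rik, on the plus strand at chr1:72984844-73025507 and overlapping Tnp1, changed by -3.36 in Spc, -5.08 in RS and -2.68 in CBs (edgeR adjusted p = 0.008, 1.5e-07 and 8.9e-05) and rose by 2.96 from Spc to RS in CTRL. The stated counting uses strand, so its counts and those of Tnp1 were assigned to opposite strands. How many reads were assigned to the wrong strand was not measured. Socs1, a cytokine signalling inhibitor 2400 bp from Tnp2, did not pass in RS (log2 fold change 0.43, edgeR adjusted p = 0.14), nor did Clec16a (-0.05, edgeR adjusted p = 0.59) or Rmi2 (0.35, edgeR adjusted p = 0.30). The other neighbours are not rows of the gene table.

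Across the 12 cell libraries the 5 members had pairwise Pearson correlations of 0.983 to 0.999 on the log2 scale, which describe libraries that share genotype, cell type and depth. By the same measure, against the mean of the members' centred log2 values, 598 of 12991 other genes reached 0.95. The 5 highest were Car2 (0.999), Fscn3 (0.999), 1700042G07Rik (0.999), Gm136 (0.999) and Ubqlnl (0.998). Car2, a carbonic anhydrase, changed by -5.26 in RS, -3.57 in Spc and -4.14 in CBs, and Fscn3, a testis fascin, by -4.87, -3.12 and -3.71. Ranked by Spearman correlation, 0 of these 5 genes were among the first 5.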

How the data were processed

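RNA of Spc and RS was sequenced as polyadenylated, strand-specific libraries, and CB RNA as total RNA without removal of ribosomal RNA or fragmentation. Per the labels and the submitters' processing notes, the authors used cutadapt 2.8 for trimming and STAR 2.7.1a for alignment against GRCm38, and deposited raw counts per gene from TEtranscripts, run as reverse stranded. Column names of the RS gene counts carry another trimming tag than those of Spc, and its meaning is not given. A difference in trimming could thus not be told apart from cell type where Spc and RS were compared. The authors also deposited expected counts per transcript from featureCounts 2.0.1, in which a read pair that matched several transcripts was shared equally among them, so that near-identical transcripts cannot be told apart. These were rounded to whole numbers here. Small RNA tables were not used here.

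Genes with at least 10 counts in at least 3 libraries (transcripts, 20 counts) were tested with edgeR 4.0.16 in R 4.3.3 (quasi-likelihood test, TMM, two-sided), fitted on all genes of the groups compared, with Benjamini-Hochberg adjustment over all genes. A call is an adjusted p no higher than 0.05 with a log2 fold change no smaller than 1.5 in either direction, and for the interaction the adjusted p alone. The scripts were tested on simulated data with 200 changed genes at a log2 fold change of 2. In comparisons of a pair of groups 77.5% to 86.5% of these were recovered, and 6.67% to 7.74% of calls were unchanged genes. For the interaction 64% were recovered and 3.03% of calls were unchanged genes, so a member that did not pass it may still differ. The samples are labelled as separate, and p-values measure only the spread between them. Alternatives were library size without TMM, DESeq2 1.42.0, no count filter, summed transcript counts (between genotypes only), each library left out and a replicate block (not for CBs).

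The members and lists were chosen with earlier results of these data known. Named genes are the 5 members, up to 4 genes of each pathway list with the lowest adjusted p in RS, genes within 100 kb of a member, the 5 genes with the most similar pattern by Pearson correlation over 12 libraries, the cell type markers of the lists, and Smg6 as the targeted gene. Kdm3a and Brwd1 were added as the regulators that were higher in RS with library size alone. Intervals use the t distribution with the degrees of freedom of the edgeR test. Sequences were read from RefSeq and GENCODE for GRCm38.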

Additional observations from a re-analysis of the deposited data

Results flagged for a closer look

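The ratio of Prm3 to Prm1 counts in CTRL CBs had 1 library apart from the others. In library 2 it was 0.150, where the other 3 libraries had 0.377 to 0.427, and the gap to the nearest library was 0.882 of the whole range on the log2 scale. For a single quantity chance flags about 1 in 20. The check covered 9 quantities, all in the same 4 CTRL CB libraries and sharing genes, so they are not independent.

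The effect of genotype on Prm3 passed the test of a difference between the cell types, with an interaction of -1.45 on the log2 scale (edgeR adjusted p = 0.032), with log2 fold changes of -4.11 in RS and -2.78 in Spc. It did not pass with library size alone (edgeR adjusted p = 0.20), nor without any one of 8 of the 12 libraries, and 24.1% of all genes passed in this direction.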

How the results depend on the processing

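In RS, in CBs and from Spc to RS in CTRL all 5 members were called under every alternative run. In Spc 1 to 5 were called when each library was left out, with 1 without Smg6-cKO library 1. From Spc to RS in Smg6-cKO the count of 0 became 0 to 4 when each library was left out. For the interaction the count of 1 became 0 to 5 when each library was left out, 0 with library size alone and 2 with DESeq2. The log2 difference of the summed members in RS was -5.02, and -4.39 as CPM without TMM, and ranking by Spearman correlation shared 0 of the 5 genes of similar pattern. No called value of a member reversed, 151 of 168 main values and counts stayed within their limits, and of 386 values of single members 360 kept their side, 13 gained and 13 lost the threshold. Among the list genes called at the adjusted p in RS, directions turned with library size alone, as for Spata16 (-0.26 to 0.36), Hspa2 (-0.44 to 0.17) and Ccna1 (-0.17 to 0.45).

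Over all genes, calls in Spc were 591 higher and 884 lower, 321 and 329 without Smg6-cKO library 1, 330 and 490 without CTRL library 3, and 342 higher without Smg6-cKO library 3. In RS 2597 and 2021 became 4991 and 1080 with library size alone, in CTRL 2895 and 2901 became 1130 and 4363, and for the interaction 3459 and 4375 became 8087 and 545. In CBs 800 higher became 1234 without the count filter and 468 without Smg6-cKO library 2. In Smg6-cKO 579 higher from Spc to RS became 1181 without Spc library 2.

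Whether replicate numbers pair the samples could not be settled. Same-numbered libraries had correlations of deviations from -0.181 to 0.559, and no comparison had all above 0.1. Between Spc and RS of Smg6-cKO they were -0.02, 0.56 and 0.30. The main tests treated all libraries as independent, which does not hold for Spc with RS if same-numbered libraries share a mouse. With the replicate block 1 member was called from Spc to RS in Smg6-cKO (Prm2, log2 fold change 1.59, edgeR adjusted p = 0.049), and no other call changed. No paired analysis was possible for CBs because the column numbers do not match the titles.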
